A study of Homo sapiens with 4 samples.

Results

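The genes that encode collagen chains were examined in H2030 cells, an established line from a human lung adenocarcinoma. A gene was taken as a collagen chain where its symbol in the deposited table read COL, a type number, A and a chain number, which gave 43 of 20252 genes. The table holds 4 poly(A) RNA libraries, 2 from cells labelled as carrying the control vector and 2 from cells labelled as overexpressing GALNT3, which adds the first sugar of mucin-type O-glycans to proteins in the Golgi. All cells, at passage 5 to 10, were cultured for 2 days in RPMI medium containing 10% serum, and no treatment is recorded. The sources used here do not give the promoter of the vector or say whether a line is 1 clone or a pool. Nor do they say that replicates were separate cultures, so a p-value here reflects only how far the 4 libraries scatter, and that scatter may be technical.

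Collagens are extracellular proteins whose chains wind around each other in a triple helix. Fibrillar collagens such as types I and III form the tensile fibrils of connective tissue, type IV forms the sheet of the basement membrane under epithelia, and type VI forms beaded filaments beside it. A trimer is built from identical chains in some types and from different chains in others, so a cell needs the transcripts of all partner chains to make the mixed trimers. In lung tissue fibroblasts are the main source of fibrillar collagen, while epithelial cells contribute chains of the basement membrane.

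Levels are in FPKM, which scales fragments by the length of the transcript and the size of the library, so levels of different genes can be set side by side. Libraries had 10915 to 11073 genes at 1 FPKM or more, and their relative depth ran from 0.966 to 1.07. GALNT3 itself was at 4.34 and 5.34 FPKM in the vector-labelled libraries and at 0.0164 and 0 FPKM in those labelled GALNT3 overexpression, the opposite of the labels, so every direction below is between libraries as labelled. An exact 0 in this table can be a failed estimate: RPL21, a ribosomal protein gene that cells use generally, was listed at 0 in vector replicate 1 and GALNT3 overexpression replicate 2, with 70.7 and 123.6 FPKM elsewhere. The cell type was checked on markers. The simple-epithelial keratins KRT8 and KRT18 were at 109 to 145 and 331 to 439 FPKM, whereas the epithelial adhesion genes EPCAM and CDH1 were at 0.459 to 1.40 and 0.0495 to 0.209 FPKM and KRT19 was listed at 0 in all 4 libraries.

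A minority of the collagen genes reached 1 FPKM in H2030 cells, and no chain exceeded 21.8 FPKM in any library. Of the 43 chains, 14 averaged 1 FPKM or more across the libraries, 8 lay between 0.1 and 1 FPKM, 18 were above 0 but below 0.1 FPKM, and 3 were listed at 0 in every library. The 3 highest, COL3A1, COL4A5 and COL6A2, made up 54.5% of the summed collagen FPKM. Together the 43 chains summed to 61.2 and 62.6 FPKM in the vector-labelled libraries and to 60.4 and 71.6 FPKM in those labelled GALNT3 overexpression. The groups overlapped in this sum. As a share of the summed FPKM of all genes this was 0.0148% ± 0.0011 and 0.0151% ± 0.0023 (SD, n = 2).

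**Figure D1:**
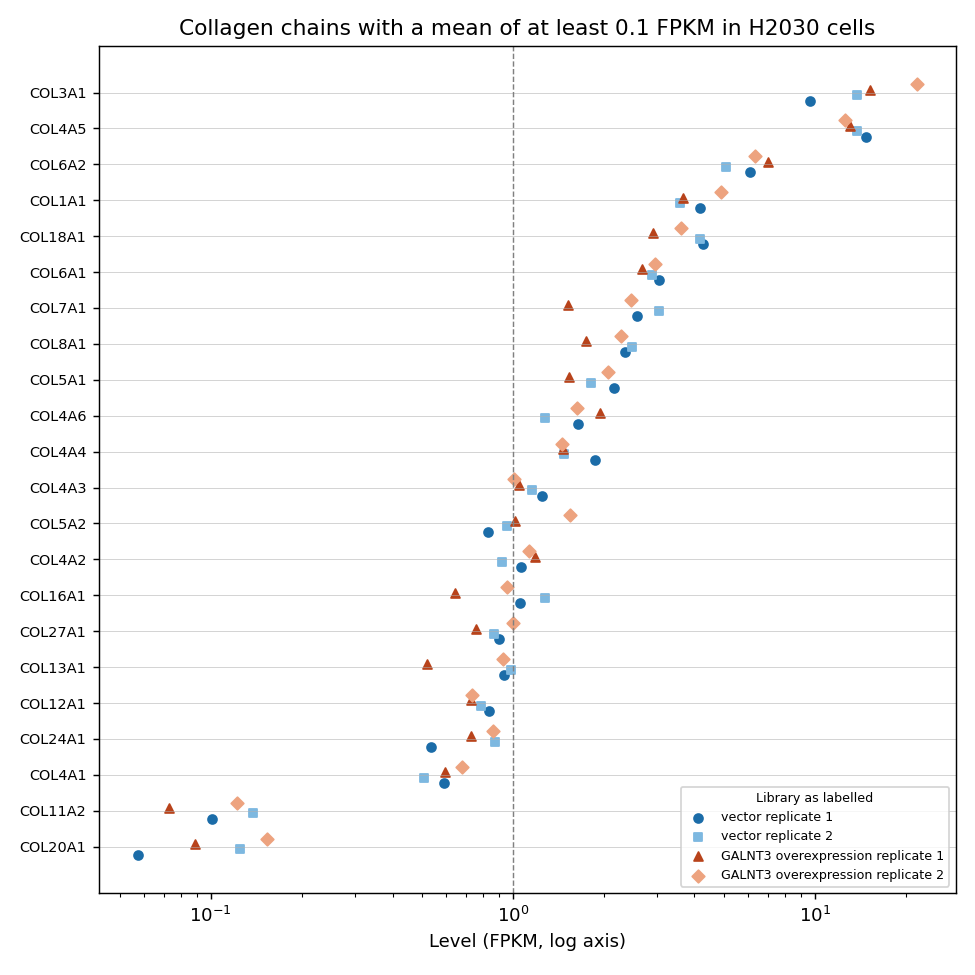
Level in FPKM (log axis) of the 22 collagen chains with a mean of at least 0.1 FPKM, 1 point per library, ordered by the mean of the 4 libraries. COL3A1 and COL4A5 stand highest, between 9.65 and 21.8 FPKM, and the dashed line marks 1 FPKM.

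The sum came mainly from fibrillar chains and the chains of the basement membrane. The 11 fibrillar chains summed to 18.5 and 22.2 FPKM in the vector-labelled libraries and to 23.1 and 32.3 FPKM in those labelled GALNT3 overexpression. The 6 chains of type IV summed to 21.2 and 19.2 FPKM in the vector-labelled libraries and to 19.3 and 18.6 FPKM in the others. The 5 chains of type VI added 9.16 and 7.96 FPKM in the vector-labelled libraries, and 9.71 and 9.29 FPKM in those labelled GALNT3 overexpression. The fibrillar and type VI sums were higher, without overlap, in the libraries labelled GALNT3 overexpression, and the type IV sums overlapped. The fibrillar order rested on COL3A1: without it, an alternative chosen after seeing the data, the other 10 chains summed to 8.82 and 8.33 FPKM against 7.86 and 10.6 FPKM, which overlap. The type VI order likewise rested on COL6A2, as COL6A1 overlapped between groups. The 10 FACIT chains, which decorate the surface of fibrils, summed to 1.99 and 2.27 FPKM in the vector-labelled libraries and to 1.56 and 1.89 FPKM in the others. This sum, and those of the multiplexin, anchoring fibril and hexagonal network families, were lower without overlap in the libraries labelled GALNT3 overexpression. The multiplexin and hexagonal network sums were almost wholly COL18A1 and COL8A1, and COL7A1 is the only anchoring fibril chain. These sums thus repeat the single chains described below. The 4 transmembrane chains summed to 0.558 to 1.11 FPKM, with overlap.

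**Figure D2:**
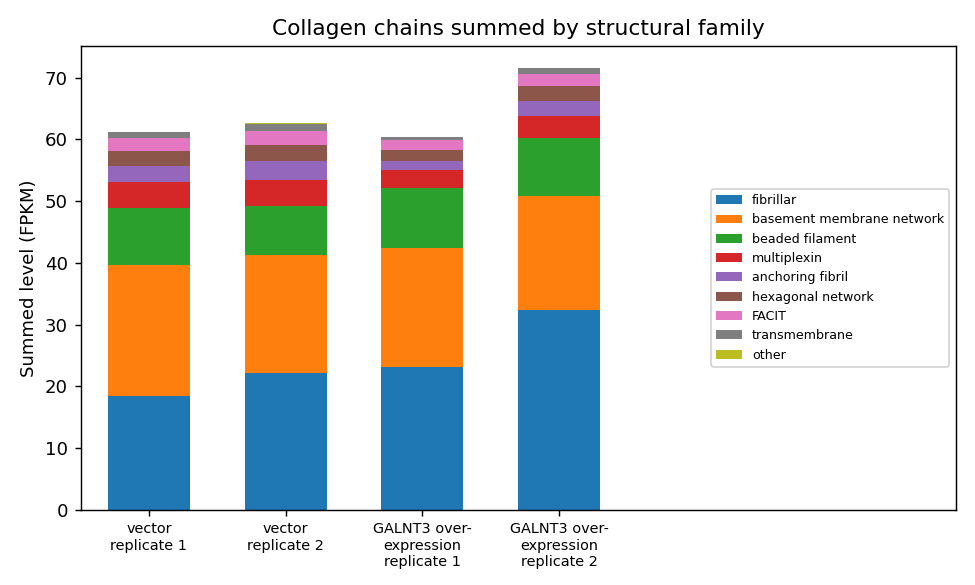
Summed level in FPKM of the 43 collagen chains in each of the 4 libraries, stacked by structural family. The fibrillar part runs from 18.5 to 32.3 FPKM and the basement membrane part from 18.6 to 21.2 FPKM.

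The comparison between the groups asks which chains differ between libraries that carry these labels. The 14 chains with a mean of at least 1 FPKM were tested with all 10998 genes at that level, by limma on log2(FPKM + 1), a scale that understates the change of low genes. Of the 14 chains 0 passed after Benjamini-Hochberg adjustment over all tested genes, where 0.5% of all genes passed (0.109% higher and 0.391% lower), and their adjusted p ran from 0.476 to 0.953. At an unadjusted p below 0.05 there were 2 chains, COL3A1 (higher) and COL18A1 (lower), where 7.34% of all genes stood. In 4 chains both values under the GALNT3 overexpression label were above both vector values (20.9% of all tested genes), and in 6 chains both were below (15.3%). The groups thus did not overlap in 10 of 14 chains, 71.4% against 36.2% of all tested genes. The median log2 difference was -0.08 over the 14 chains and 0.02 over all tested genes. In bulk RNA, fewer cells of a type and less RNA per cell cannot be told apart.

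**Figure D3:**
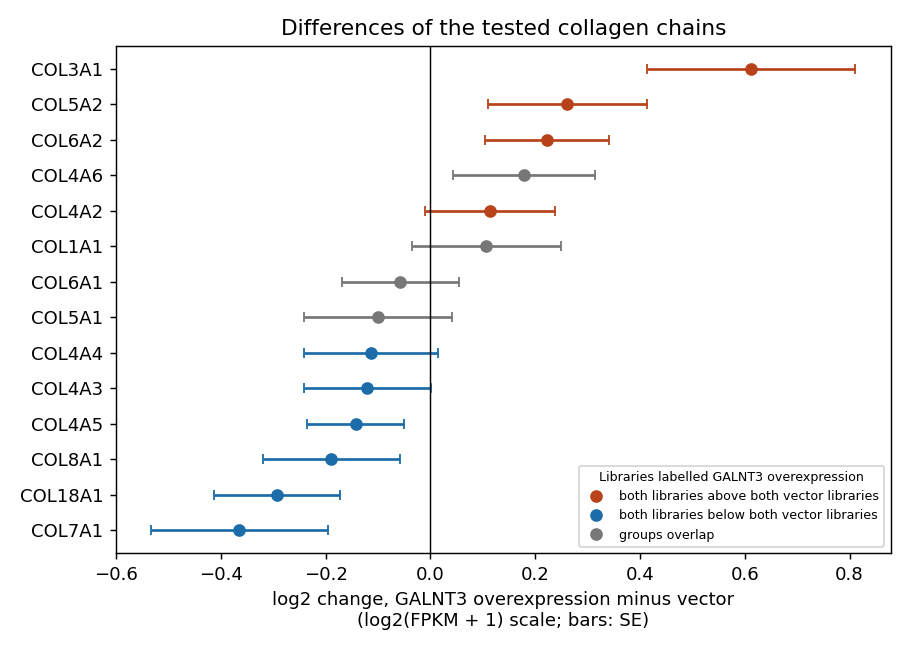
Difference of each of the 14 tested collagen chains, GALNT3 overexpression minus vector, on the log2(FPKM + 1) scale, with bars for the SE from limma. COL3A1 has the highest estimate at 0.61 and COL7A1 the lowest at -0.36, and no chain passed the adjusted threshold.

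Among the fibrillar collagens COL3A1, the chain of type III collagen, which trimerizes with itself and lies with type I in skin, vessel and lung stroma, was the highest chain. It was at 9.65 and 13.8 FPKM in the vector-labelled libraries and at 15.2 and 21.8 FPKM in those labelled GALNT3 overexpression (ENSG00000168542; chromosome 2, 188974320 to 189012746, GRCh38). The groups did not overlap, with vector replicate 1 lowest and GALNT3 overexpression replicate 2 highest. The means were 11.7 ± 3.0 and 18.5 ± 4.6 FPKM (SD, n = 2), a ratio of 1.57, and the log2 difference was 0.61 ± 0.20 (SE; limma, adjusted p = 0.476). With single libraries left out the log2 difference ran from 0.37 to 0.86. Of 13 alternative fits COL3A1 passed in 1, that with a term for the replicate number. The labels do not tie this number to a shared culture or day. The values came out as 1118 and 1476 whole fragments in the vector-labelled libraries and as 1598 and 2270 in the others, so counting error is small beside the spread between libraries.

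COL1A1, the major chain of type I collagen, stood far above the values listed for its usual partner. COL1A1 was at 4.17 and 3.57 FPKM in the vector-labelled libraries and at 3.66 and 4.89 FPKM in those labelled GALNT3 overexpression (chromosome 17, 50183289 to 50201632). The groups overlapped (log2 difference 0.11 ± 0.14, SE; limma, adjusted p = 0.926). COL1A2, whose product completes the common type I trimer (chromosome 7, 94394561 to 94431232), was at 0.00876 FPKM in vector replicate 1 and listed at 0 in the other 3 libraries, where a failed estimate cannot be told apart from a low level. In vector replicate 1 these were 523 whole fragments of COL1A1 against 1 of COL1A2, a ratio of FPKM of 476 (95% exact interval 85.0 to 18829, counting error only). The type I homotrimer, made of COL1A1 chains alone, is known from some tumours and cultured cells. Whether any type I protein was made was not measured.

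Type V collagen, which is built into fibrils of types I and III and sets their width, was represented by transcripts of COL5A1 and COL5A2. COL5A1 was at 2.17 and 1.82 FPKM in the vector-labelled libraries and at 1.54 and 2.06 FPKM in those labelled GALNT3 overexpression. Its groups overlapped (log2 difference -0.10 ± 0.14, SE; limma, adjusted p = 0.930). COL5A2 was at 0.827 and 0.961 FPKM in the vector-labelled libraries and at 1.02 and 1.55 FPKM in the others, without overlap (0.26 ± 0.15; limma, adjusted p = 0.791). The level of COL5A1 was 1.89 to 2.62 times that of COL5A2 in the vector-labelled libraries and 1.33 to 1.51 times in those labelled GALNT3 overexpression. The remaining chain of the type, COL5A3, was at 0.0509 to 0.0912 FPKM.

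The other fibrillar genes were lower. COL27A1 and COL24A1, chains of minor fibrillar types described in cartilage and, in the mouse, in developing bone and eye, had means of 0.880 and 0.749 FPKM, and their groups overlapped. COL11A2 had a mean of 0.109 FPKM. COL11A1 was at 0.00735 to 0.0271 FPKM, which came out as 1 to 4 fragments a library. COL2A1, the cartilage collagen, was listed at 0 in both vector-labelled libraries and came out as 1 fragment in each of the others.

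**Figure D4:**
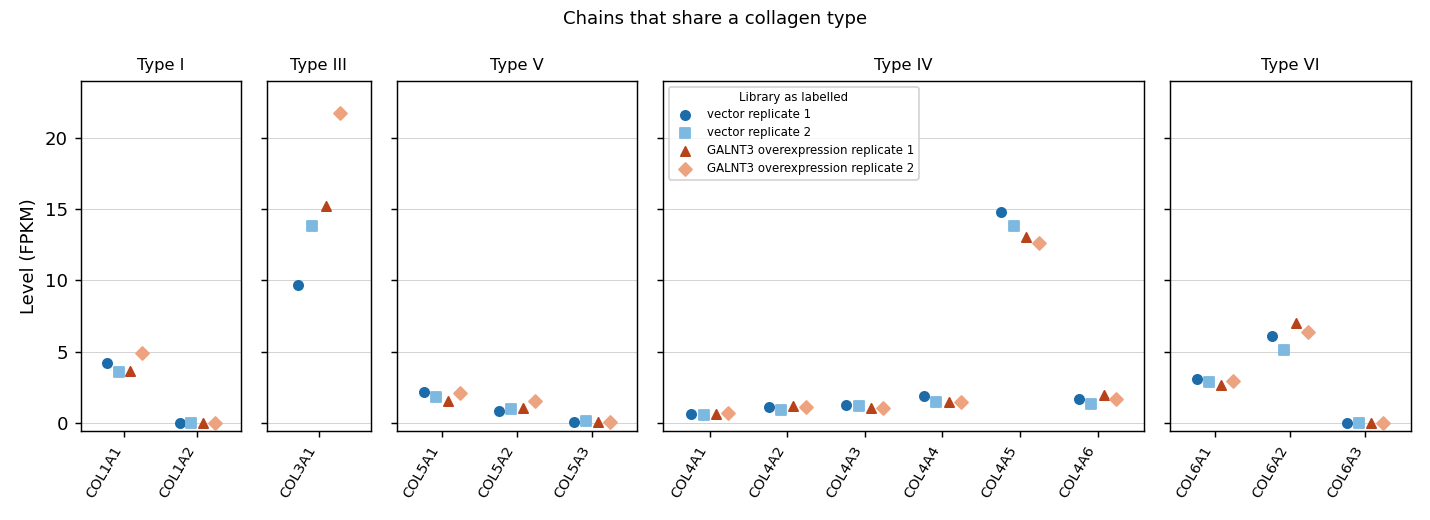
Level in FPKM (linear axis) of chains that share a collagen type, 1 point per library. COL1A2 and COL6A3 lie at or next to 0 beside partners at 3.57 to 4.89 and 2.68 to 7.01 FPKM, and COL4A5 lies at 12.7 to 14.8 FPKM above the other 5 chains of type IV.

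All 6 chains of type IV collagen were at 0.509 FPKM or more in every library. In basement membranes they are used in fixed trimers: COL4A1 with COL4A2 in nearly all tissues, COL4A3 with COL4A4 and COL4A5 in kidney glomerulus, lung alveolus, cochlea and eye, and COL4A5 with COL4A6 in skin, bronchus and smooth muscle. Their genes lie in head-to-head pairs whose starts face each other across a short stretch, and the shared stretches are shown because both chains of a pair start from them. They are from RefSeq (GRCh38.p14), plus strand, 5′ to 3′. The first of each pair is read from the minus strand to the left and the second from the plus strand to the right. Capitals mark the letters CCAAT and GGGCGG (a GC box) on either strand. For the first pairs all bases between the RefSeq starts used are given. For COL4A6 and COL4A5, whose starts lie 379 bases apart, the 250 bases before COL4A5 are given.
COL4A1-COL4A2, chr13:110307158-110307283: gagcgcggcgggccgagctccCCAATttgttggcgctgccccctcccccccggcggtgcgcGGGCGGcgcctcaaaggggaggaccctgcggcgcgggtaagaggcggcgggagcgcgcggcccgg
COL4A4-COL4A3, chr2:227164489-227164623: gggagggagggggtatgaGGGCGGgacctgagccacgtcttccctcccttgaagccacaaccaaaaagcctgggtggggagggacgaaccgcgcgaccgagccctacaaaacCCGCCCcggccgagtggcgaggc
COL4A6-COL4A5, chrX:108439588-108439837: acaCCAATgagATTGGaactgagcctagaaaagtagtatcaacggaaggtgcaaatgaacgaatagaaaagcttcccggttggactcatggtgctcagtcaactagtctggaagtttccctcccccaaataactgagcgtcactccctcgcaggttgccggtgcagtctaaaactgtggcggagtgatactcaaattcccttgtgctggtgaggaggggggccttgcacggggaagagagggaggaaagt

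The stretches differ in base composition and motifs. The COL4A1-COL4A2 stretch of 126 bases had 80.2% G and C, with 1 CCAAT and 1 GC box that do not overlap. The COL4A4-COL4A3 stretch of 135 bases had 68.2% G and C and 2 GC boxes, 1 on each strand. The 250 bases before COL4A5 had 51.2% G and C, with 2 CCAAT motifs, 1 on each strand, and no GC box. The letters TATAAA were in none of the 3 stretches. Among 35116 RefSeq promoter entries cut to the 250 bases before the start, 32.0% hold CCAAT, 42.6% GGGCGG and 10.7% TATAAA on either strand. For the 126 bases before the start these shares are 21.1%, 34.6% and 5.87%, and for 135 bases 22.1%, 35.55% and 6.13%. A match describes letters only, not a bound site.

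COL4A5 stood far above the other type IV chains. It was at 14.8 and 13.8 FPKM in the vector-labelled libraries and at 13.0 and 12.7 FPKM in those labelled GALNT3 overexpression (ENSG00000188153; chromosome X, 108439844 to 108697545). The groups did not overlap, at 14.3 ± 0.69 and 12.9 ± 0.28 FPKM (SD, n = 2), with a log2 difference of -0.14 ± 0.09 (SE; limma, adjusted p = 0.823). Its head-to-head neighbour COL4A6 was at 1.65 and 1.28 FPKM in the vector-labelled libraries and at 1.94 and 1.63 FPKM in the others. Here the groups overlapped and the estimate had the opposite sign (0.18 ± 0.13; limma, adjusted p = 0.860). The level of COL4A5 was 8.98 and 10.8 times that of COL4A6 in the vector-labelled libraries and 6.71 and 7.76 times in those labelled GALNT3 overexpression.

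The other pairs were closer to each other in level. COL4A3 was at 1.25 and 1.16 FPKM in the vector-labelled libraries and at 1.05 and 1.01 FPKM in those labelled GALNT3 overexpression (adjusted p = 0.911; limma). COL4A4 was at 1.87 and 1.48 FPKM against 1.47 and 1.46 FPKM (adjusted p = 0.912). Both chains were lower without overlap in the libraries labelled GALNT3 overexpression, neither passed, and COL4A4 was at 1.27 to 1.49 times the level of COL4A3. COL4A2 was at 1.07 and 0.924 FPKM in the vector-labelled libraries and at 1.19 and 1.13 FPKM in the others (limma, adjusted p = 0.912). COL4A1, with a mean of 0.594 FPKM and so below the level for testing, was at 0.591 and 0.509 FPKM against 0.596 and 0.681 FPKM. Both were higher without overlap in the libraries labelled GALNT3 overexpression, and COL4A2 was at 1.66 to 1.99 times the level of COL4A1. COL4A1 came out as 82 and 65 fragments in the vector-labelled libraries and as 75 and 85 in the others. COL4A2 came out as 142 and 113 against 143 and 135. The fragment counts of both chains overlap between groups, so their order without overlap appears only after scaling for depth.

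The common trimer of type VI collagen joins COL6A1, COL6A2 and COL6A3. Of these COL6A3 was listed at 0 throughout, where a failed estimate cannot be told apart from a low level. COL6A2 was at 6.11 and 5.08 FPKM in the vector-labelled libraries and at 7.01 and 6.34 FPKM in those labelled GALNT3 overexpression, without overlap (log2 difference 0.22 ± 0.12, SE; limma, adjusted p = 0.770). COL6A1, the next gene on chromosome 21, was at 3.05 and 2.88 FPKM against 2.68 and 2.95 FPKM, with overlap (-0.06 ± 0.11; limma, adjusted p = 0.953). COL6A2 stood at 1.76 to 2.62 times the level of COL6A1. COL6A3 was listed at 0 in all 4 libraries (chromosome 2, 237324003 to 237414375), as was COL6A5, and COL6A6 was at 0 in both vector-labelled libraries and at 0.0243 and 0.00613 FPKM in the others. COL6A5 and COL6A6 are chains that can stand in place of COL6A3.

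The tested chains of other families were COL18A1, COL7A1 and COL8A1. All were lower without overlap in the libraries labelled GALNT3 overexpression, as were 15.3% of all tested genes, and none passed the threshold. In each of these chains GALNT3 overexpression replicate 1 was the lowest library. Without that library the log2 differences were -0.18, -0.14 and -0.06. COL18A1, a heparan sulfate proteoglycan of basement membranes whose end fragment is endostatin, was at 4.26 and 4.16 FPKM in the vector-labelled libraries and at 2.92 and 3.61 FPKM in the others. The groups did not overlap, at 4.21 ± 0.073 and 3.27 ± 0.49 FPKM (SD, n = 2), with a log2 difference of -0.29 ± 0.12 (SE; limma, unadjusted p = 0.0437, adjusted p = 0.654). In GENCODE 29 its exons share 1401 bases with exons of SLC19A1, a folate carrier gene on the opposite strand. The library kit keeps strand, but the counting setting is not given in the sources used here, so reads in that part may be assigned to either gene. SLC19A1 was at 17.4 ± 1.9 and 17.4 ± 3.0 FPKM (limma, adjusted p = 0.997).

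COL7A1 and COL8A1 had the same order of groups. COL7A1, the anchoring fibril that ties epithelial basement membranes to the stroma below, was at 2.57 and 3.05 FPKM in the vector-labelled libraries and at 1.53 and 2.46 FPKM in those labelled GALNT3 overexpression. The groups did not overlap (log2 difference -0.36 ± 0.17, SE; limma, adjusted p = 0.722), and the difference was -0.14 to -0.59 with single libraries left out. COL8A1, a short network-forming chain known from vessel walls and the cornea, was at 2.35 and 2.49 FPKM against 1.75 and 2.28 FPKM, without overlap (-0.19 ± 0.13; limma, adjusted p = 0.839). Its partner COL8A2 did not exceed 0.0239 FPKM.

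Of the 26 chains above 0 but below the level for testing, 5 lay higher without overlap in the libraries labelled GALNT3 overexpression and 7 lower. Among all genes in that range 16.2% lay higher and 16.8% lower, and many of the chains rest on a handful of fragments. Those higher were COL4A1, COL22A1, COL21A1, COL6A6 and COL2A1, all but COL4A1 on 0 to 4 fragments a library. COL21A1 came out as 1 and 0 fragments in the vector-labelled libraries and as 1 and 1 in the others. Its counts thus overlap, and its order rests on the scaling for depth. COL16A1, a FACIT chain just under 1 FPKM, was at 1.06 and 1.28 FPKM in the vector-labelled libraries and at 0.645 and 0.961 FPKM in the others. These were 125 and 139 fragments against 69 and 102. COL13A1, a transmembrane collagen of adhesion sites, was at 0.935 and 0.985 FPKM against 0.521 and 0.928 FPKM. COL12A1, a large FACIT chain of dense connective tissue, was at 0.833 and 0.788 FPKM against 0.728 and 0.735 FPKM. COL20A1, with a mean of 0.106 FPKM, overlapped between groups. COL17A1, the hemidesmosomal collagen of basal keratinocytes, was at 0.0372 to 0.0824 FPKM, on 4 to 9 fragments a library. The 18 chains above 0 with a mean below 0.1 FPKM did not exceed 0.0912 FPKM in any library, the level of COL5A3 in vector replicate 2. Of all chains, 13 were listed at 0 in some but not all libraries, and COL9A3 joined COL6A3 and COL6A5 at 0 throughout.

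Type XXVI collagen is listed under an older name, EMID2 (now COL26A1), and so is not among the 43. It was at 1.73 and 1.98 FPKM in the vector-labelled libraries and at 0.845 and 1.14 FPKM in those labelled GALNT3 overexpression. The groups did not overlap, and the log2 difference was -0.52 ± 0.13 (SE; limma, adjusted p = 0.299).

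Besides the type IV pairs and COL6A1 with COL6A2, 3 pairs of collagen genes lie close together. COL3A1 and COL5A2 lie tail to tail on chromosome 2, 19149 bases apart, at means of 15.1 and 1.09 FPKM, and both were higher without overlap in the libraries labelled GALNT3 overexpression. The ratio of COL3A1 to COL5A2 was 11.7 and 14.4 in the vector-labelled libraries and 15.0 and 14.0 in the others. Relative to COL1A1, COL3A1 was at 2.31 and 3.87 times in the vector-labelled libraries and at 4.16 and 4.45 times in those labelled GALNT3 overexpression. COL3A1 and COL4A5 exchanged ranks: COL4A5 was the higher in vector replicate 1, they were nearly level in vector replicate 2, and COL3A1 was the higher in both libraries labelled GALNT3 overexpression. The remaining pairs, COL6A5 with COL6A6 and COL19A1 with COL9A1, were at or next to 0.

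Genes that make, export, process, crosslink, bind or degrade collagen were taken as 8 lists. The lists hold 103 genes with a value, of which 65 were tested. After adjustment over all genes 0 were higher and 1 was lower, and at an unadjusted p below 0.05 there were 4 higher and 8 lower, where 3.62% and 3.72% of all genes stood. The list medians below stand beside the median of 0.02 over all tested genes. The gene that fell was TGM2, tissue transglutaminase, which joins matrix proteins by glutamine to lysine bonds. It was at 112 and 100.6 FPKM in the vector-labelled libraries and at 47.6 and 51.6 FPKM in the others. Its mean fell by 1.08 ± 0.10 on the log2 scale (SE, limma, n = 2 a group), with an adjusted p of 0.0050014. Leaving out vector replicate 1 ended the call (-1.01, adjusted p = 0.0524), as did a fit with every gene above 0 tested (limma, adjusted p = 0.111).

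Of 19 genes whose products modify and fold the chains in the endoplasmic reticulum, 17 reached 1 FPKM and were tested. Of these 0 passed and 1, PLOD2, had an unadjusted p below 0.05, with a median log2 difference of 0.02. PLOD2, the hydroxylase of lysines in the ends of the chains, was at 105 ± 3.9 against 81.8 ± 1.8 FPKM (limma, adjusted p = 0.240; SD, n = 2). TMEM38B, a potassium channel of the endoplasmic reticulum, was at 5.50 and 6.84 FPKM, P4HB, a subunit of prolyl hydroxylase, at 315 and 284 FPKM, and PPIB, a prolyl isomerase, at 477 and 522 FPKM. Of 9 tested genes of procollagen export 0 passed (median -0.0039). SEC23A, a coat protein of the vesicles that carry procollagen, was at 34.4 and 41.5 FPKM and MIA3, the cargo receptor, at 5.45 and 4.86 FPKM. SEC13 was at 72.3 and 75.8 FPKM and SAR1B at 5.05 and 4.84 FPKM.

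Of 11 propeptide processing genes 4 were tested and 0 passed (median -0.25). PCOLCE2, an enhancer of the protease that removes the C-terminal propeptide, was at 10.7 ± 1.6 against 6.86 ± 0.79 FPKM (limma, adjusted p = 0.199; SD, n = 2). The related PCOLCE was at 3.70 and 2.93 FPKM, the protease BMP1 at 5.28 and 4.29 FPKM, and FURIN, which activates such proteases, at 44.3 and 52.2 FPKM. ADAMTS2, which removes the N-terminal propeptide, was below the level for testing, at 0.0258634 and 0.0115 FPKM. Of 3 tested crosslinking genes the other two did not pass: PXDN, which makes the sulfilimine bonds of type IV collagen, was at 8.24 ± 0.51 and 10.4 ± 0.15 FPKM (limma, adjusted p = 0.467). LOXL2, a lysyl oxidase that also acts on type IV collagen, was at 51.8 and 49.0 FPKM, while LOX, the classical enzyme of fibril crosslinking, was at 0.124 and 0.0855 FPKM.

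Of 7 tested collagen receptors 0 passed, with 1 higher and 2 lower at an unadjusted p below 0.05 (median -0.19). ITGA1, the integrin subunit that prefers type IV collagen, was at 8.62 ± 1.1 against 12.8 ± 0.62 FPKM (limma, adjusted p = 0.167; SD, n = 2), and ITGA2, which prefers fibrillar collagen, at 3.69 and 4.61 FPKM. CD44 was at 32.2 and 22.1 FPKM and MRC2, an uptake receptor for collagen, at 5.50 and 3.75 FPKM. Of 6 tested matrix partners 0 passed (median -0.17), with TGFBI, a collagen-binding adhesion protein, at 83.3 and 56.4 FPKM, MATN2 at 1.51 and 0.984 FPKM, HSPG2 at 3.20 and 2.59 FPKM and THBS1 at 236 and 299 FPKM. Of 6 tested genes of collagen degradation 0 passed (median 0.05), with the inhibitor TIMP2 at 27.4 and 20.6 FPKM (adjusted p = 0.444; limma), TIMP1 at 113 and 124 FPKM, and the cathepsins CTSL (listed as CTSL1) and CTSB at 292 and 328 FPKM and at 51.3 and 46.4 FPKM. Of 14 tested genes of TGF-beta signalling, a main inducer of fibrillar collagen genes, 0 passed (median 0.02). Besides TGFBI, LTBP2 was at 1.98 and 1.48 FPKM, TGFBR3 at 1.85 and 1.34 FPKM and the ligand TGFB3 at 4.30 and 4.97 FPKM. TGFBI without GALNT3 overexpression replicate 2 was the only further gene of these lists to pass in a fit with a single library left out.

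**Figure D5:**
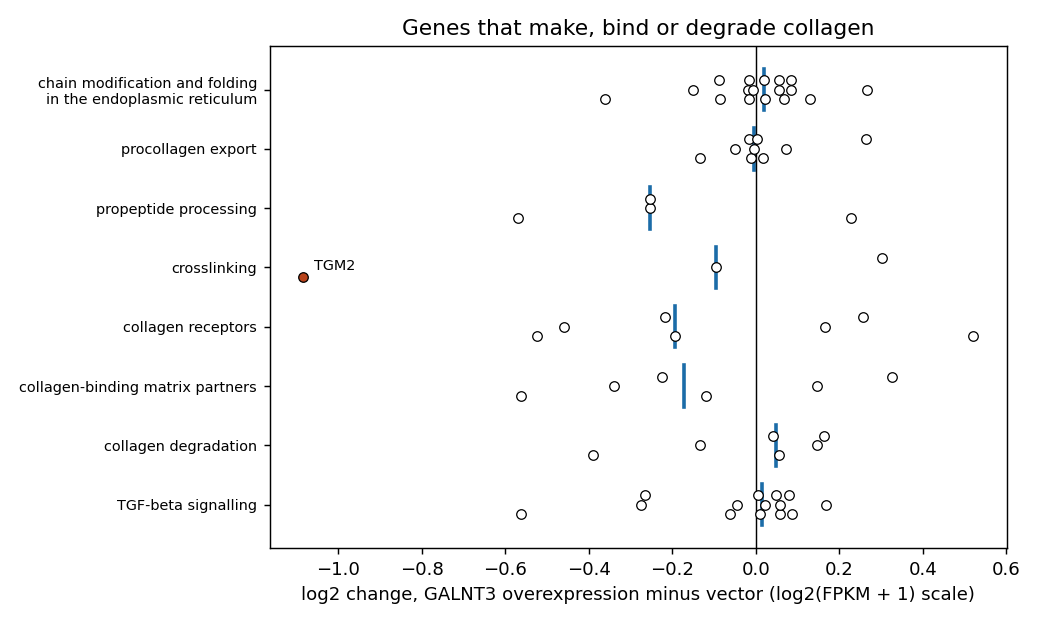
Difference on the log2(FPKM + 1) scale, GALNT3 overexpression minus vector, of each tested gene in the 8 lists, 1 point per gene, with a bar at the median of each list. TGM2 at -1.08 is the filled point, the 1 gene that passed the adjusted threshold, and the medians lie between -0.25 and 0.05.

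Fibroblast markers other than collagen chains were below 1 FPKM in every library, whereas 2 smooth muscle markers were above it. Of 10 fibroblast markers, COL1A1 and COL3A1 were the 2 at 1 FPKM or more, and DCN and THY1 were listed at 0 in all 4 libraries. Without the collagen chains the other 7 markers summed to 0.800 and 0.832 FPKM in the vector-labelled libraries and to 0.398 and 0.222 FPKM in those labelled GALNT3 overexpression. LUM was the largest part under the vector label, at 0.502 and 0.467 FPKM against 0.184 and 0.0531 FPKM, while PDGFRA overlapped between groups. All 7 lay below the level for testing, and a link to the level of COL3A1 was not tested. Of 5 smooth muscle markers 2, ACTA2 and TAGLN, were at 1 FPKM or more, at 1.78 to 2.64 and 6.08 to 8.45 FPKM. MYH11 was listed at 0 in all 4 libraries, and the list summed to 8.77 and 10.3 FPKM against 8.93 and 8.78 FPKM. The 6 endothelial markers summed to 0.356 to 0.782 FPKM, with 0 of them at 1 FPKM or more. Of 6 immune markers 1, CD68, which is also a lysosomal protein of other cells, had a mean above 1 FPKM. It was lower under the GALNT3 overexpression label, at 28.2 against 16.7 FPKM (limma, adjusted p = 0.0238). CD14 was at 1.31 and 0.381 FPKM in the vector-labelled libraries and at 1.07 and 0.307 FPKM in the others. The pan-leukocyte gene PTPRC did not exceed 0.00983 FPKM.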

How the data were processed

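The authors deposited 1 table with an FPKM value for each gene symbol and library; the header names no unit, and FPKM was read from the values. The submitters' processing notes name TopHat, GenomeStudio 2010.1, GRCh38 and hg19, without roles. The counting program is not given in the sources used here. No per-sample column was left unmapped (0 columns). FPKM divides by each library's total, so a few abundant genes can shift the rest.

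Genes averaging 1 FPKM or more were transformed to log2(FPKM + 1) and tested with limma 3.58.1 (trend, group as the only term) in R 4.3.3, two-sided, Benjamini-Hochberg adjusted over 10998 genes, threshold 0.05. The procedure was checked on simulated data with independent libraries and planted changes larger than that of any tested chain. The check does not show whether differences as small as those of the chains could be called. An exact permutation test of 2 against 2 libraries cannot go below p = 0.333, so calls rest on limma's shared variance. Alternatives were 13 other fits.

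Whole fragments were read from the steps of low FPKM values, with relative depths taken from the same steps. A solution had to lie within 0.005 of whole numbers in every library and within 10% of the step that transcript length gives. It was found for 28 chains and not for 12. Intervals cover counting error only. Older symbols were matched through RefSeq synonyms. Positions are from GENCODE 29 (GRCh38), matched by symbol. RefSeq promoter entries matched 31 of 43 chains. Python 3.11.15 was used.

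The chains and gene lists were chosen with earlier results of these data known. Every chain with a mean of at least 1 FPKM is described, and lower chains by range or, above 0.1 FPKM, by name. From each list up to 4 genes with the smallest p are named. COL5A3, COL8A2, COL11A1, COL17A1, COL2A1, COL6A6, COL21A1, COL22A1, EMID2, MYH11, ADAMTS2, LOX and chains listed at 0 were named after their values were seen.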

Additional observations from a re-analysis of the deposited data

How the results depend on the processing

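The number of calls over all tested genes was 55. It was 12 with every gene above 0 tested, 31 with a mean of at least 5 FPKM, 443 with a replicate block, and 23 to 83 with single libraries left out. The count of collagen chains that passed was 0 in the other 12 alternatives, among them the fit that tested 40 chains, and 1 with the replicate block, where COL3A1 passed (limma, log2 difference 0.61, adjusted p = 0.00100). Over the other alternatives the adjusted p of COL3A1 ran from 0.0697 to 0.872. Of the pathway genes 1 passed in the main analysis, 0 with every gene above 0, 11 with the replicate block, and 0 to 2 with single libraries left out. The replicate numbers are shared between groups, but the labels do not tie them to a culture or day. Deviations of same-numbered libraries correlated at r = 0.22 across 10998 genes, which are not independent. With single libraries left out the estimate of COL1A1 ran from -0.062 (without GALNT3 overexpression replicate 2) to 0.28. That of COL5A1 ran from -0.23 to 0.035 (without GALNT3 overexpression replicate 1). The other 12 tested chains kept their sign in each alternative that tested them, but single libraries moved several estimates by over 1.5 times. COL8A1 ran from -0.32 to -0.06, COL18A1 from -0.41 to -0.18, COL5A2 from 0.09 to 0.43, COL4A6 from 0.07 to 0.29 and COL6A2 from 0.11 to 0.34. COL4A4 ran from -0.22 to -0.0079, COL6A1 from -0.11 to -0.0062 and COL4A2 from 0.06 to 0.17. The cause of the shifts above was not tested. Without the most abundant chain the collagen share of summed FPKM was 0.0120% under the vector label and 0.0109% under the GALNT3 overexpression label. At thresholds of 2 and 0.5 FPKM 8 and 20 chains were counted, against 14 at 1 FPKM. The lowest chains rest on a few fragments.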
